A study of Mus musculus with 2 samples.

Results

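The genes described here are 34 genes of the Fanconi anaemia pathway, of homologous recombination and of the signalling that calls on them, among 17216 genes listed in the series. They were taken by symbol from a list of repair genes, drawn up with earlier results of these data known though no measured value enters the rule, and all 34 were listed in both libraries and averaged at least 1 FPKM (fragments scaled for transcript length and sequencing depth, as deposited by the authors). RNA came from C57BL/6 mouse cells sorted as LT-HSCs, the long-term haematopoietic stem cells, by a gate for Sca-1, c-Kit and CD150 without lineage markers or CD48, with 1 library from Ccp3-/- mice and 1 from wild type littermates. Ccp3 is the gene Agbl3, whose product, a cytosolic carboxypeptidase, removes glutamate residues from proteins. How many animals went into each library, their age and the deleted part of the gene are not given in the labels. Agbl3 RNA was still detected in the Ccp3-/- library, at 0.66 FPKM against 1.11 FPKM in wild type, and RNA of the excluded marker CD48 was high in both, so the libraries are named by their labels, which these values did not check. With 1 library per genotype no test between genotypes was possible, no value has a replicate check, and every difference compares these libraries.

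The Fanconi pathway removes crosslinks that join the strands of DNA and block replication. A core complex anchors the ubiquitin ligase FANCL, which marks the FANCD2 and FANCI pair, and the marked pair brings in nucleases that cut around the crosslink. The broken chromatid is then restored by homologous recombination, in which the ends are resected and BRCA2 loads the strand-exchange recombinase with PALB2, BRCA1 and the recombinase paralogs. Loss of the pathway causes bone marrow failure in people, and blood stem cells are known to depend on it against DNA damage from reactive aldehydes. Many of these genes are transcribed mainly in cells preparing for or passing through S phase.

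E2F and NF-Y are factors known for driving transcription of cell cycle genes, so the promoters of the repair genes were read for their binding letters. RefSeq promoters of build GRCm38.p6, of 300 bases from 250 before to 50 after the start, were matched for 27 of the 34 genes, which have 30 promoters. The E2F letters TTTCCCGC or their reverse complement GCGGGAAA occurred in 5 of the 30 (16.7%), those of Bard1, Brca2, Chek2, Fancg and Rad51c, and in 1.07% of all 32851 promoters of that table. The other E2F form searched, TTTGGCGC or GCGCCAAA, was in 0 of the 30 and in 0.514% of all. The stretches below show the match before the start in 4 of these genes, with the E2F letters in capitals, read 5′ to 3′ on the strand of the gene.
Bard1 (chr1:71103123-71103222, minus strand): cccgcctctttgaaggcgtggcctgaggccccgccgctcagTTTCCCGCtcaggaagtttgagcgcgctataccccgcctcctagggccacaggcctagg
Brca2 (chr5:150522407-150522506, plus strand): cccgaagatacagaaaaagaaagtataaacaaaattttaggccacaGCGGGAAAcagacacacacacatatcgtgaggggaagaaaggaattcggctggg
Chek2 (chr5:110839785-110839884, plus strand): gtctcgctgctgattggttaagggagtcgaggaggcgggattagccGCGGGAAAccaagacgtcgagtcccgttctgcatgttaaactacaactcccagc
Fancg (chr4:43010302-43010401, minus strand): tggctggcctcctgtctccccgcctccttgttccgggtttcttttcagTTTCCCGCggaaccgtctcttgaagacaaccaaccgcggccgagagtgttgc
The match began 209 bases before the start in Bard1, 168 in Brca2, 152 in Chek2 and 52 in Fancg. The NF-Y letters CCAAT or ATTGG were in 20 of the 30 promoters (66.7%) and in 37.4% of all. The cell cycle genes homology region (CHR), searched on both strands as TTTGAA and in its other form TTCGAA, was in 3 of the 30 (10%) and in 19.2% of all. The repair gene promoters also differed in base composition, with a median of 22 CG pairs against 7 over all promoters and a median GC content of 57.3% against 52.7%. How far that composition accounts for the shares was not tested, and a match is a description of letters only. The median difference between the libraries, on the log2 scale defined with the comparison, was 0.21 over the 5 genes with the E2F letters and 0.15 over the 22 matched genes without them.

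The repair genes were expressed at low to middling levels in both libraries. Their median was 7.80 FPKM in wild type and 8.83 FPKM in Ccp3-/- cells, against 11.6 and 11.9 FPKM over the 11985 genes that averaged at least 1 FPKM. In the wild type library 10 of the 34 lay above the median of all those genes, and 11 did in the Ccp3-/- library. Their values summed to 350.1 and 374.2 FPKM. The order of the genes was much the same in both libraries, with a Spearman correlation across the 34 genes of 0.93, given as a description because the genes share the same libraries. Rad50, Nbn, Chek2 and Rbbp8 were the 4 genes above 20 FPKM in each library, and Rad51c and Fancf were the lowest in the wild type library and again in the Ccp3-/- library. Reads per gene, estimated from the step between low FPKM values, ran from 71 to 2363 in the wild type and from 74 to 2569 in the Ccp3-/- library.

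**Figure D1:**
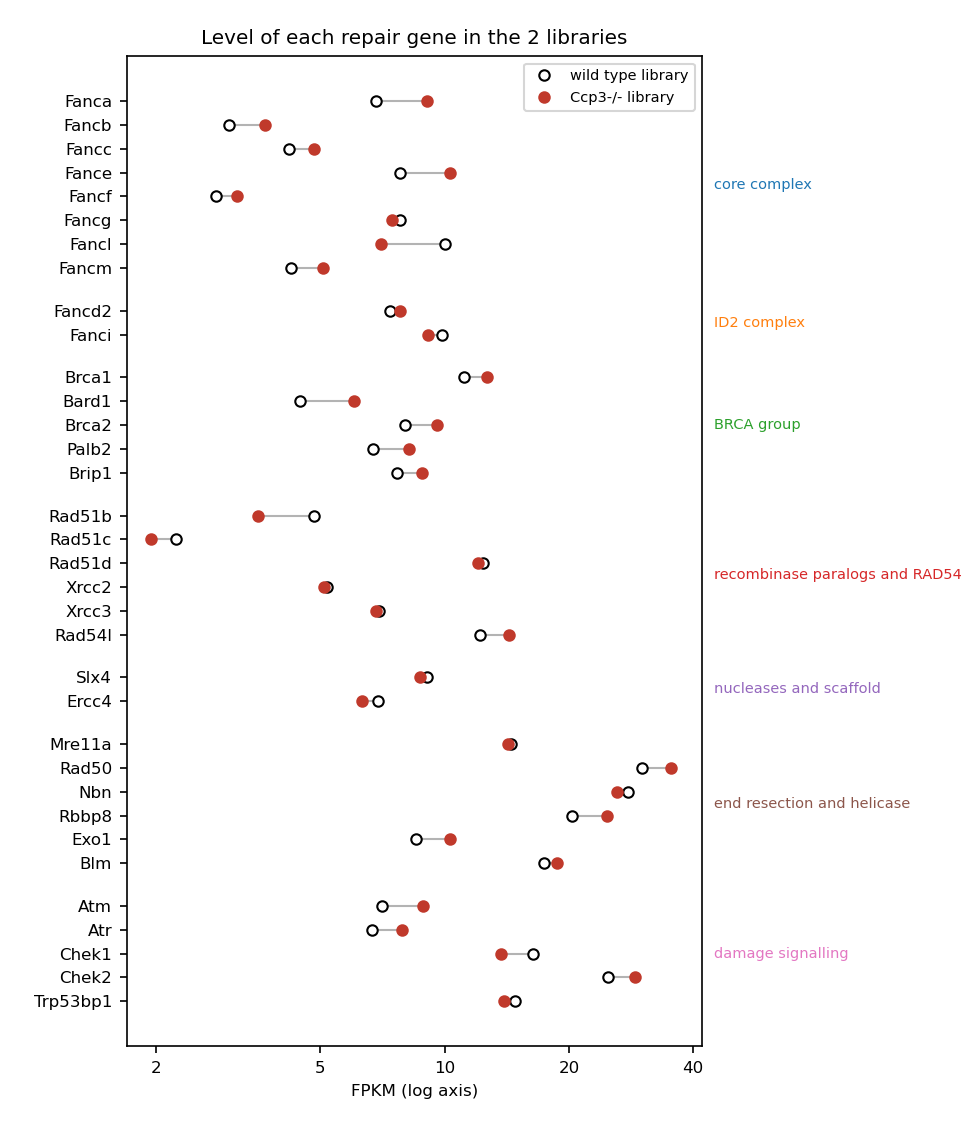
FPKM (log axis) of the 34 repair genes, grouped by role, in the wild type library (open points) and the Ccp3-/- library (filled points), 1 library each. The grey lines join the 2 values of a gene. Rad50, Nbn, Chek2 and Rbbp8 stand above 20 FPKM in both libraries, and Rad51c is the lowest gene in both.

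The comparison asked whether repair transcripts differ between the library labelled Ccp3-/- and the wild type library. None of the 34 genes differed by 1.5-fold in either direction on the log2(FPKM + 1) scale. Of all 11985 genes, 6.12% were at least 1.5-fold higher in the Ccp3-/- library and 6.16% at least 1.5-fold lower, while 87.8% lay within 1.5-fold. Differences of the repair genes ran from -0.46 for Fancl to 0.37 for Fanca and Fance, with 20 above 0 and 14 below, where 50.8% of all genes were above 0. Their median difference was 0.15, against 0.01 over all genes. With both libraries scaled to equal FPKM sums, which moved the median of all genes to 0.18, 30 of the 34 were above 0 and still none passed 1.5-fold. That count is not to be read beside the 50.8%, which holds for the values as deposited. The share of all genes above 0 under that scaling is not given here. A difference here is the Ccp3-/- value less the wild type value on that log2 scale, and the added 1 understates the change of low genes. Ratios below are of FPKM without it, and each has a 95% interval from the estimated reads that covers counting error only.

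That interval lay above 1 for 15 of the 34 genes, where it did so for 31.2% of all genes. It lay below 1 for 3, namely Fancl, Rad51b and Chek1, where it did so for 27.1% of all genes. The intervals rest on the estimated reads, and with each of 6 other windows of gene length and read number for that estimate, chosen after the data were seen, the interval of Trp53bp1 also lay below 1, which made 4, while 15 stayed above 1. For the other 15 genes the interval included 1 under every window, and a difference was not detectable at this depth. All these intervals use FPKM as deposited, without scaling to equal sums or centring on transcript length. The upper bound of the interval was a median of 1.12 times the ratio over the 34 genes, and up to 1.41 times for Fancf.

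**Figure D2:**
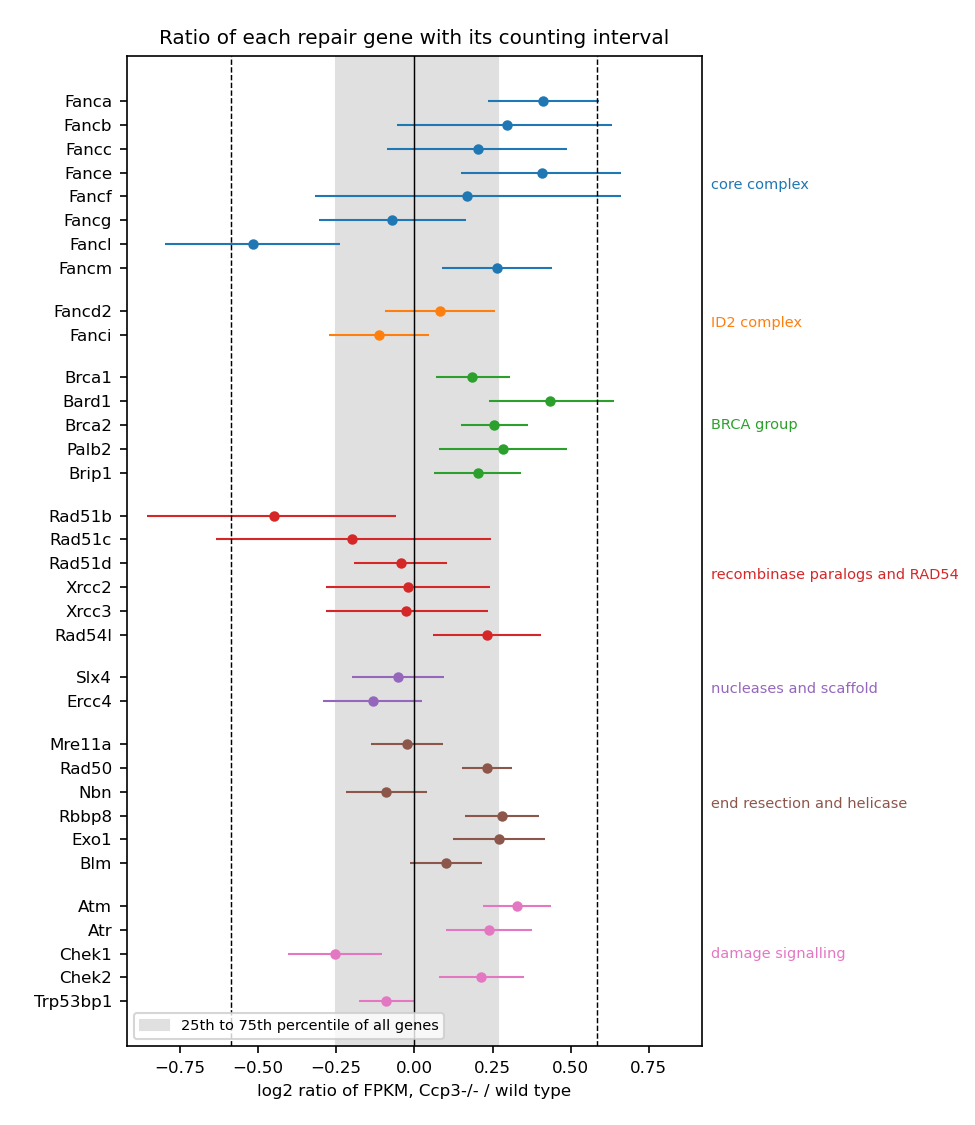
Log2 ratio of FPKM (Ccp3-/- over wild type) of each repair gene, with the 95% counting interval as a bar, coloured by role. Dashed lines mark 1.5-fold. The grey band runs from the 25th to the 75th percentile of genes averaging at least 1 FPKM and above 0 in both libraries. All 34 points lie between the dashed lines, the 5 genes of the BRCA group lie right of 0, and Fancl is farthest left.

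In the core complex, 6 of 8 genes were higher in the Ccp3-/- library and 2 were lower, with a median difference of 0.19. FANCL is the ubiquitin ligase subunit, and Fancl (Entrez 67030) was the gene with the largest difference of all 34, at 10.1 FPKM in wild type and 7.03 FPKM in Ccp3-/- cells, from about 269 and 176 reads. The wild type library was thus higher by 1.43-fold, which is a Ccp3-/- to wild type ratio of 0.70 (95% interval 0.575 to 0.849). Fance (72775), whose product links the core to FANCD2, went the opposite way with 7.79 and 10.3 FPKM and a ratio of 1.33 (1.11 to 1.58). Fanca (14087), the gene most often mutated in patients, was listed at 6.82 and 9.08 FPKM, a ratio of 1.33 (1.18 to 1.51). FANCG binds FANCA directly, and Fancg stood at 7.81 and 7.44 FPKM with an interval that included 1. As a result Fanca was 0.873 of Fancg in the wild type library and 1.22 of it in the Ccp3-/- library. The translocase gene Fancm, which recognises stalled forks, was listed at 4.24 and 5.09 FPKM, a ratio of 1.2 (1.06 to 1.36). Fancb, Fancc and Fancf were the low genes of the complex, at 3.0 and 3.68 FPKM, 4.19 and 4.82 FPKM, and 2.80 and 3.15 FPKM, and the interval of each included 1. Fancb is X-linked, and the X-inactivation RNA Xist was listed at 5.38 FPKM in wild type and 44.2 FPKM in Ccp3-/- cells. The part of a different mix of sexes in the value of Fancb, or of any other repair gene, was not tested.

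The substrates of the core complex, the clamp genes Fancd2 and Fanci, were close in the 2 libraries. Fancd2 (211651) was listed at 7.37 FPKM in wild type and 7.80 FPKM in Ccp3-/- cells, a ratio of 1.06 (0.937 to 1.2). Fanci (208836) was listed at 9.88 and 9.14 FPKM, a ratio of 0.925 (0.828 to 1.03). Neither interval excluded 1 and the genes differed in opposite directions, so Fanci was 1.34 times Fancd2 in the wild type library and 1.17 times in the Ccp3-/- library. The crosslink nuclease genes downstream, Ercc4, which encodes XPF, and Slx4, the scaffold that holds several nucleases, were also close. Ercc4 stood at 6.91 and 6.30 FPKM and Slx4 at 9.05 and 8.73 FPKM, and both intervals included 1.

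All 5 genes of the BRCA group were higher in the Ccp3-/- library, and the interval of each lay above 1. BARD1 is the obligate partner of BRCA1, and Bard1 (12021) differed most, at 4.46 FPKM in wild type and 6.03 FPKM in Ccp3-/- cells, a ratio of 1.35 (1.18 to 1.56). Brca1 (12189) was listed at 11.2 and 12.7 FPKM, a ratio of 1.14 (1.05 to 1.23), and so was 2.5 times Bard1 in the wild type library and 2.10 times in the Ccp3-/- library. Brca2 (12190), whose product loads the recombinase onto DNA, stood at 8.03 and 9.59 FPKM, a ratio of 1.19 (1.11 to 1.29). PALB2 joins BRCA1 to BRCA2, and Palb2 was listed at 6.72 and 8.18 FPKM, a ratio of 1.22 (1.06 to 1.40). The helicase gene Brip1, also called Fancj, was listed at 7.65 and 8.80 FPKM, a ratio of 1.15 (1.04 to 1.27). The group's transcripts are long, with a median of 6648 bases. The median difference of the group was 0.23, and the median over the group of the value in genes of the same length was 0.28, so that long transcripts in general were as much higher in the Ccp3-/- library. Bard1 and Palb2 stood above genes of their own length, by 0.20 and 0.17, while Brca1, Brca2 and Brip1 stood below them, by -0.12, -0.10 and -0.10.

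The recombinase paralog genes, whose products help to build and stabilise the filament on single-stranded DNA, were all lower in the Ccp3-/- library by 1.37-fold or less, with an interval below 1 for Rad51b alone. Rad51b (19363) was listed at 4.82 FPKM in wild type and 3.53 FPKM in Ccp3-/- cells, from about 135 and 91 reads, a ratio of 0.732 (0.553 to 0.959). Rad51c, which sits in both paralog complexes, was the lowest of the 34 genes at 2.24 and 1.95 FPKM, and its ratio of 0.871 had a wide interval of 0.644 to 1.18. Rad51d was listed at 12.4 and 12 FPKM, Xrcc2 at 5.18 and 5.11 FPKM and Xrcc3 at 6.93 and 6.81 FPKM, all with intervals that included 1. With equal FPKM sums the differences of Rad51d, Xrcc2 and Xrcc3 turned above 0, at 0.136, 0.144 and 0.145. Those of Rad51b and Rad51c stayed below 0, and the median of all genes was 0.18. The levels within the complexes were uneven, with Rad51d at 5.53 times Rad51c in the wild type library and 6.16 times in the Ccp3-/- library. Rad54l encodes a motor that acts after the filament has formed, and it was the 1 gene of this group that was higher, at 12.2 and 14.3 FPKM, a ratio of 1.17 (1.04 to 1.33).

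Among the genes that open and process DNA ends, 4 of 6 were higher in the Ccp3-/- library and 2 were lower. The MRN complex senses breaks and starts resection, and 2 of its genes, Rad50 and Nbn, were among the 3 most abundant of the 34 in each library. Rad50 (19360) was listed at 30.0 FPKM in wild type and 35.3 FPKM in Ccp3-/- cells, a ratio of 1.17 (1.11 to 1.24). Nbn stood at 27.8 and 26.1 FPKM and Mre11a at 14.5 and 14.3 FPKM, and both intervals included 1. Rad50 was therefore 1.08 times Nbn in the wild type library and 1.35 times in the Ccp3-/- library. Rbbp8, which encodes the resection factor CtIP, was listed at 20.3 and 24.7 FPKM, a ratio of 1.22 (1.12 to 1.32). The long-range resection nuclease gene Exo1 was listed at 8.54 and 10.3 FPKM, a ratio of 1.21 (1.09 to 1.34). Blm, a helicase that resects ends and dissolves joined molecules, was listed at 17.4 and 18.7 FPKM, a ratio of 1.07 whose interval of 0.990 to 1.16 included 1.

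Of the 5 damage signalling genes, 3 were higher and 2 lower in the Ccp3-/- library. The apical kinase genes were both higher, with Atm (11920) at 7.06 and 8.86 FPKM, a ratio of 1.26 (1.16 to 1.35), and Atr at 6.68 and 7.88 FPKM, a ratio of 1.18 (1.07 to 1.30). The genes of the kinases they activate went apart. Chek1 (12649), the target of ATR in replication stress, was listed at 16.4 FPKM in wild type and 13.7 FPKM in Ccp3-/- cells, a ratio of 0.839 (0.756 to 0.930). Chek2 (50883), the target of ATM at breaks, was listed at 24.9 and 28.9 FPKM, a ratio of 1.16 (1.05 to 1.28). Chek2 was 1.52 times Chek1 in the wild type library and 2.11 times in the Ccp3-/- library. Trp53bp1 encodes 53BP1, which shields ends from resection, and was listed at 14.8 and 13.9 FPKM, a ratio of 0.940 (0.884 to 1.0), whose upper bound fell below 1 with the other windows of the read estimate.

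The differences went with transcript length over the whole of both libraries, and less closely so over the repair genes. Over all 11985 genes the Spearman correlation of length and difference was 0.43, and over the 34 repair genes it was 0.25, both across genes, which are not independent replicates. Of the 13 repair genes with transcripts of 5000 bases or more, 9 were above 0 with a median of 0.21, where the 1769 other genes of that length had a median of 0.26 and 81.7% were above 0. Of the 10 between 3000 and 5000 bases, 6 were above 0, with a median of 0.08 beside 0.09 for others. Of the 11 under 3000 bases, 5 were above 0, with a median of -0.02 beside -0.10 for others. After the median of the 200 genes nearest in length was taken from each difference, 12 of the 34 genes were above 0. The median of the 34 was then -0.08, so the direction of the median turned. Over all 11985 genes the centred median was -0.0003, and the share of them above 0 is not given here. Across the 34 genes the Spearman correlation of length and this centred difference was -0.30. The 2 members farthest below genes of their length were then Trp53bp1 and Ercc4, both at -0.40, followed by Fancl at -0.36 and Chek1 at -0.29. Farthest above were Fance at 0.48, Fanca at 0.23 and Chek2 at 0.22. The core complex was the 1 role group of 7 whose median stayed above 0, at 0.15.

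**Figure D3:**
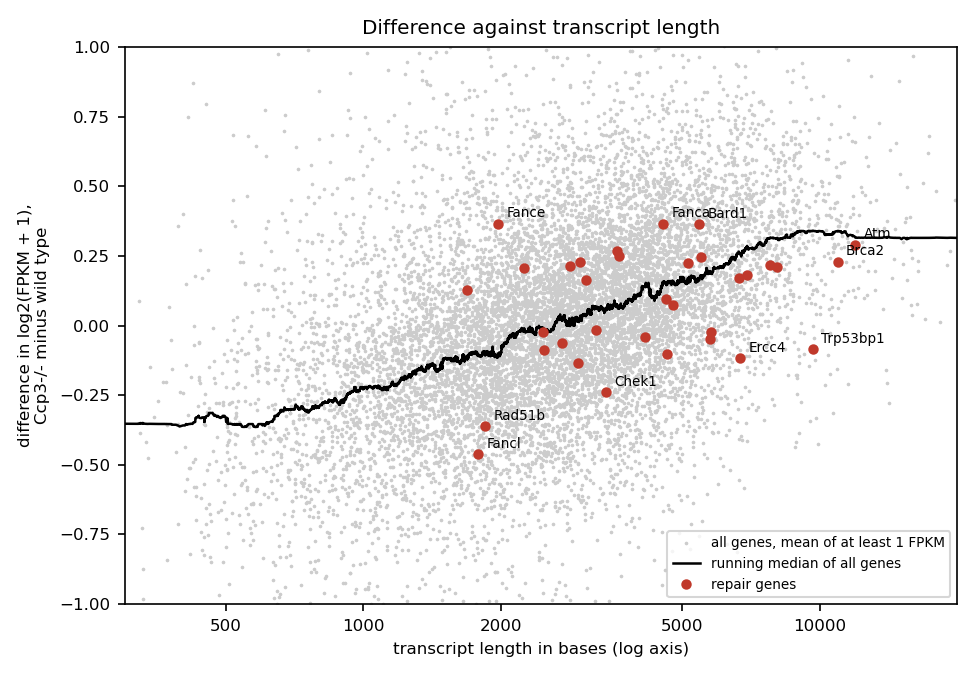
Difference in log2(FPKM + 1), Ccp3-/- minus wild type, against transcript length in bases (log axis) for all genes averaging at least 1 FPKM (grey), their running median (line) and the 34 repair genes (red, 10 of them named). Genes beyond a difference of 1 in either direction, and those with the shortest and longest transcripts, are outside the axis. The running median climbs with length, and Fance lies above it while Fancl, Chek1, Ercc4 and Trp53bp1 lie below it.

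The deposited transcript length differed between the libraries only in genes with several transcripts, among genes listed in both. Of the 34 genes, 15 had several transcripts and in 13 of these the length differed between the libraries. The shift exceeded 40 bases in 5 genes. Palb2 had the largest, from 3714 bases in the wild type to 3556 bases in the Ccp3-/- library, followed by Rad51d, from 4194 to 4111 bases. No error can be put on such a shift from 1 library each. A neighbouring transcript may also add reads where exons overlap, since no source at hand says if the reads were counted by strand. Overlap was read from whole gene bodies, and shared exons were not checked. In the RefSeq annotation 9 protein-coding neighbours with at least 2 FPKM in both libraries overlapped a repair gene. Among them were Vrk2 with Fancl (23.4 and 19.9 FPKM), Zfp276 with Fanca (5.7 and 6.4 FPKM) and Aopep with Fancc (13.3 and 17.4 FPKM). Also among them were Klc1 with Xrcc3 (34.3 and 37.4 FPKM), Polg with Fanci (11.9 and 14.5 FPKM) and Lrrc41 with Rad54l (8.49 and 9.91 FPKM).

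Other genes of the same pathways were taken from lists, and their counts are to be read beside the 6.12% of all genes that were 1.5-fold higher and the 6.16% that were lower. Of 25 crosslink repair partners averaging at least 1 FPKM, 1 passed 1.5-fold in each direction, and the median difference was 0.08. The lower gene was Cenpx, which encodes a small partner of FANCM, at 108 FPKM in wild type and 63.8 FPKM in Ccp3-/- cells. The higher gene was Bod1l, which protects stalled forks, at 12.9 and 21.2 FPKM. The nuclease gene Ercc1, partner of Ercc4, stood just inside 1.5-fold lower on the log2(FPKM + 1) scale at 21.1 and 13.8 FPKM. The maintenance methylation cofactor gene Uhrf1 was higher, at 56.8 and 78.5 FPKM, a difference of 0.46. Of 25 recombination partners, 1 was higher and 0 lower, with a median of -0.12. The higher gene was the resolvase gene Gen1, at 4.08 and 6.68 FPKM. Rpa2 and Rpa3, the small subunits of the single-strand binding protein, stood at 30.1 and 22.3 FPKM and at 30.5 and 22.9 FPKM, and the resection nuclease gene Dna2 at 15.1 and 20.2 FPKM. Of 26 damage signalling partners, 1 was higher and 1 lower, with a median of 0.04. Rif1, which acts with 53BP1 at ends, was the higher gene at 12.2 and 19.7 FPKM. The ubiquitin ligase gene Rnf168, whose product prepares chromatin for 53BP1, stood at 20.1 and 28.8 FPKM, and the checkpoint clamp gene Hus1 at 5.33 and 7.73 FPKM. The lower gene, Shld1 of the shieldin complex, was at 2.01 and 0.72 FPKM from about 45 and 15 reads, and is named although its mean was below 5 FPKM. After centring on genes of similar length, the medians were 0.01 for crosslink repair, -0.03 for recombination and 0.03 for damage signalling partners.

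End joining, which competes with recombination for the same breaks, had 14 genes measured, of which 1 was at least 1.5-fold lower and 0 higher. Their median was 0.03. The lower gene was Paxx, a scaffold factor, at 24.0 and 14.8 FPKM. The Ku genes Xrcc5 and Xrcc6 stood at 19.5 and 14.4 FPKM and at 64.8 and 50.7 FPKM, and Polq, the polymerase of the alternative route, at 5.94 and 8.11 FPKM. Of 6 aldehyde detoxification genes none passed 1.5-fold and 5 were lower in the Ccp3-/- library. Aldh7a1 stood at 18.8 and 13 FPKM. Aldh2, the enzyme known to shield Fanconi-deficient stem cells, stood at 199 and 161 FPKM, and Adh5, which clears formaldehyde, at 95.9 and 84.8 FPKM, though Adh5 was named after its value was seen. Of 17 targets of p53, the factor that halts cells with damaged DNA, 1 was higher and 3 lower, with a median of 0.03. Btg2, a growth-arrest gene, was lower at 30.2 and 16.0 FPKM, as were Plk2 (4.68 and 2.62 FPKM) and Phlda3 (1.81 and 0.73 FPKM), and the apoptosis gene Pmaip1 was higher at 2.77 and 6.35 FPKM. These last 3 had means below 5 FPKM and are named because the counts were small. The p53 targets Cdkn1a and Mdm2, named after their values were seen, stood at 23.4 and 20.2 FPKM and at 28.8 and 28.2 FPKM. Trp53inp1 was listed at 4.48 and 6.85 FPKM and Sesn1 at 32.1 and 22.2 FPKM, both inside 1.5-fold on the log2(FPKM + 1) scale. Of the 17 targets, 11 had a difference above 0 and 6 below. The counting interval lay above 1 for 7 of them and below 1 for 5. Centred on genes of similar length, the median of the 17 was 0.12.

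Cell cycle genes were taken from an S phase and a G2/M list. Of 32 S phase genes, 1 passed 1.5-fold upward and 0 downward, and the median was 0.06, while their summed level was 2146 FPKM in wild type and 2127 FPKM in Ccp3-/- cells. The higher gene was Casp8ap2, a histone transcription cofactor, at 10.7 and 17.6 FPKM. Of 32 G2/M genes, none passed 1.5-fold in either direction, with a median of 0.17, 24 above 0, and sums of 1561 and 1751 FPKM. After centring on genes of similar length the medians were 0.07 for the S phase genes and 0.11 for the G2/M genes, both above 0, where that of the repair genes was -0.08. No test of these lists against the repair genes was made.

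**Figure D4:**
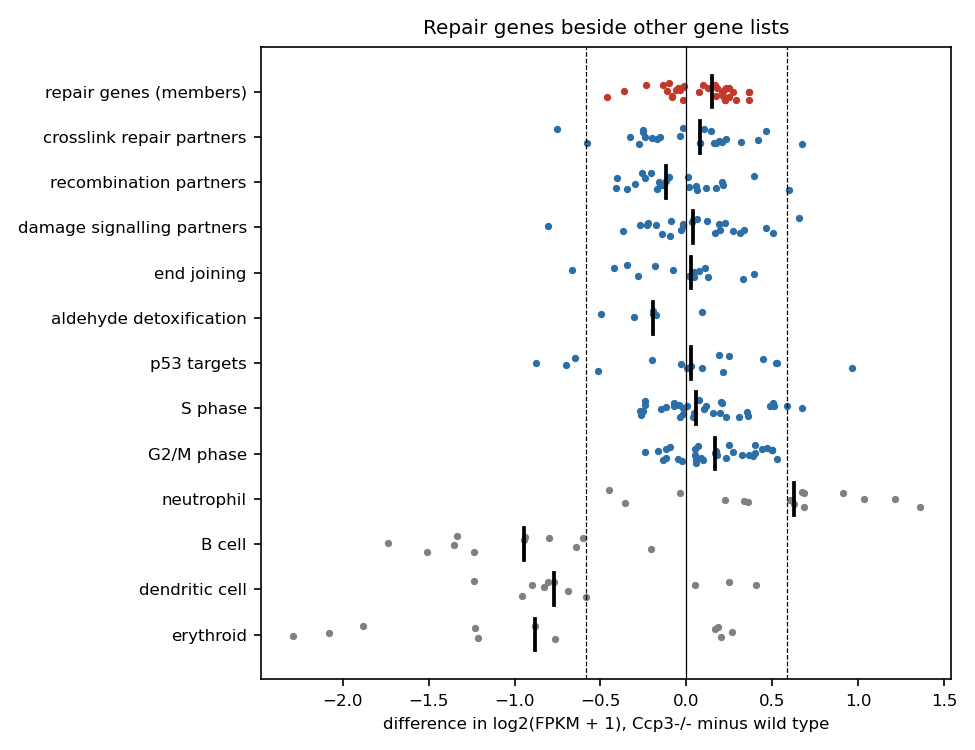
Difference in log2(FPKM + 1), Ccp3-/- minus wild type, for each gene averaging at least 1 FPKM in the repair genes (red), 8 pathway lists (blue) and 4 lists of cell type markers (grey), with the median as a black bar. Dashed lines mark 1.5-fold. All 34 repair genes lie between the dashed lines, while most B cell markers lie left of them and most neutrophil markers lie right of them.

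The sorted cells and the genotype label limit how these values can be read. Agbl3 was listed at 1.11 and 0.66 FPKM, a ratio of 0.595 (0.289 to 1.19), so it did not check the genotype label, and the Ccp3-/- library is named by that label. RNA of Cd48, whose product was a marker sorted against, stood at 136 and 114 FPKM, beside 2.14 and 3.40 FPKM for Slamf1, which encodes the CD150 used to gate cells in, with Kit at 59.7 and 56.5 FPKM and Ly6a, which encodes Sca-1, at 49.1 and 28.4 FPKM. Of 15 neutrophil markers 9 were at least 1.5-fold higher in the Ccp3-/- library and 0 lower, with sums of 8662 and 12066 FPKM. Of 11 B cell markers 10 were lower and 0 higher, with sums over the list of 138 and 61.5 FPKM. Of 11 dendritic cell markers 8 were lower (519 and 300.02 FPKM), and of 11 erythroid markers 7 were lower (1509 and 458 FPKM). Of 7 multipotent progenitor markers 3 were lower and of 12 stem cell markers 3 were lower, with sums of 1089 and 710 FPKM and of 125 and 84.4 FPKM, and neither list had a member at least 1.5-fold higher on the log2(FPKM + 1) scale. The stem cell list holds Slamf1, whose FPKM ratio was 1.59 (1.2 to 2.11). The monocyte and macrophage list had 4 of 11 higher and 1 lower (581 and 705 FPKM). The T and NK cell list had 4 of 9 lower (103 and 72.6 FPKM), the megakaryocyte list 3 of 6 lower and 1 higher (71.8 and 58.9 FPKM), the mast cell and basophil list 1 of 6 lower (150 and 121 FPKM) and the endothelial and stromal list 2 of 4 lower (97.3 and 71.1 FPKM). Markers counted here as higher or lower differed by at least 1.5-fold on that scale, unless given as above or below 0. Every marker sum is over all genes of a list found in the libraries, including those averaging below 1 FPKM that the counts leave out. Trbc2 and Gp6 were not listed in either library, Tpsb2 appeared in the wild type library alone, at 0.12 FPKM, and of the stromal genes Col1a1 and Col3a1 were at or below 0.17 FPKM in both, while Col1a2 was listed at 0.63 and 0.86 FPKM, Cxcl12 at 11.4 and 4.57 FPKM and Pdgfrb at 16.2 and 12.6 FPKM. The part of this cell makeup in the values of the repair genes was not tested, and in RNA from many cells together, fewer cells of a type and less RNA per cell cannot be told apart.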

How the data were processed

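RNA libraries from sorted cells were sequenced on a BGISEQ-500 instrument, per the labels. Each deposited table holds Entrez identifiers, RefSeq transcripts, a length and an FPKM value computed by the authors. The submitters' processing notes name HISAT, HISAT2 and RSEM and the build mm9, without versions or settings. Symbols came from RefSeq (GRCm38.p6), which matched 17169 of 17216 identifiers, and no coordinates of that build were joined to the mm9 values. Its promoter positions and overlaps between gene bodies come from RefSeq alone. Depth was estimated from low FPKM values of short genes with 1 transcript. FPKM times length, less offsets of 41.5 and 39.5 bases, fell on steps of 64.95 and 70.2, which gives about 15.4 and 14.2 M reads. Whole reads, to within 0.15, were reached by 86.2% of 645 values in the wild type and 88.0% of 634 in the Ccp3-/- library, beside 30% for an even spread. Step and offset were chosen on these same values, and the window of the fit (genes of 200 to 1300 bases, up to 12 reads) was kept out of 7 tried on these files, with an earlier estimate of the steps known. Over the 7 the steps ran from 64.15 to 64.95 and from 68.85 to 70.8. Intervals are exact conditional binomial intervals on rounded reads, approximate because the reads are estimated.

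Differences used log2(FPKM + 1) and genes averaging at least 1 FPKM, with 1.5-fold as a rule of size. The scripts were tested on simulated data. The genes and lists were chosen with earlier results of these data known. Named genes were the 34 repair genes, the 4 gate genes and, in other lists, up to 4 with a mean of at least 5 FPKM by difference. Some genes that this rule names are not reported here. Alternatives covered the pseudocount, the filter, 3 scalings and length. The software was scipy 1.17.1, pandas 2.3.3, numpy 2.4.6 and matplotlib 3.10.9 under Python 3.11.15.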

Additional observations from a re-analysis of the deposited data

How the results depend on the processing

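The counts of repair genes at least 1.5-fold higher and lower were 0 and 0 under all 8 alternatives, of which a minimum of 5 FPKM left 28 of the 34 genes. The median difference of the 34 genes (0.15) was 0.30 with equal FPKM sums, which multiplied the Ccp3-/- library by 1.14 and moved the median of all genes to 0.18, and -0.081 after centring on genes of similar length. Length centring took the genes above 0 from 20 to 12 and the role groups with a median above 0 from 4 to 1, and equal sums took those role groups to 7 and the genes above 0 to 30. The shares of all genes above 0 under these alternatives are not given here. Signs of single genes changed for 10 of 34 with equal sums and 8 of 34 with length centring, and for 0 of 34 under 5 other alternatives and 0 of the 28 genes left by a minimum of 5 FPKM. Over the 8 pathway and cell cycle lists, the 5 genes at least 1.5-fold higher became 9 with a pseudocount of 0.1, 0 with 5, 21 with equal sums and 2 with length centring. The 6 lower genes became 2 with a pseudocount of 5, and 3 with a minimum of 5 FPKM, with equal sums and with length centring. Intervals below 1 numbered 3 as given and 4, with Trp53bp1, under each of 6 other windows of the read estimate chosen after the data were seen. Those above 1 numbered 15 under every window. The intervals were not recomputed with equal FPKM sums or with length centring, the alternatives that changed signs of single genes. The cause of these moves was not tested. No paired analysis was possible because each genotype has 1 library. Depth limits the genes with few reads, such as Fancf, Rad51b and Rad51c.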
